A study of Caenorhabditis elegans with 2 samples.

Results

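On the X chromosome of Caenorhabditis elegans early embryos, 416 peaks of SEA-1 chromatin immunoprecipitation had a signal value of 60 or more in the ranked list made from both replicates but overlapped no peak of the conservative list. The ranked list held 103831 rows, of which 16868 lay on X. Of the X rows, 698 reached a signal value of 60, 437 of these overlapped no conservative peak by even 1 bp, and 21 were removed because a gene for a tRNA, snoRNA or snRNA lay less than 100 bp from the summit. The 416 that were left were 2.47% of the ranked rows on X. The same steps on the autosomes left 2246 peaks, 2.58% of 86963 ranked rows, and over all chromosomes 2662 peaks, or 2.56%. The signal value and the absence from the conservative list chose the peaks, so both are given only as a description.

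Chromatin was immunoprecipitated with an antibody against GFP from whole embryos of strain OP129, collected at 0 hour by bleaching, and sonicated to a size range of 200-800. The strain carries the transgene wgIs129, which holds sea-1 tagged with TY1, EGFP and 3xFLAG together with an unc-119(+) rescue marker, in animals that carry the unc-119(ed3) mutation. There was 1 group of 2 biological replicates, with no second condition, and no control values were used here. The sequencing depth behind the lists is unknown, and no value here could be set against it. Coordinates are on build ce11 (WBcel235), 1-based, with genes from Ensembl release 115.

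SEA-1 is a T-box transcription factor and an autosomal signal element: with the number of X chromosomes held against the number of autosome sets, embryos choose a sex through the switch gene xol-1, which autosomal elements activate and X signal elements such as sex-1 and ceh-39 repress. The choice also decides whether the dosage compensation complex, brought to X by SDC-2, lowers expression from both X chromosomes of hermaphrodites. T-box proteins bind DNA that contains the core GGTGTGA.

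The name "below the conservative list" stands for absence from that list, and not for a lower signal value at every peak. X conservative peaks away from small RNA genes had signal values from 2.07 to 358, with a median of 91.0. The median of the 416 X peaks was 67.0, and the ranges overlapped. The strongest pair on X ranked 1 and 2 among all 103831 rows, with signal values of 2926 and 2258, whereas the highest signal value in the conservative list was 791. Whether the ranked and the conservative list share a scale of signal value is not stated, so values of the 2 lists are set side by side only as a description. The ranked list gives each row a score with a maximum of 5, which is −log10 of its irreproducible discovery rate (IDR) and rises as the rank of a peak agrees better between 2 peak sets. A score of 2 corresponds to an IDR of 0.01, and 44 of the 416 X peaks reached it. Among all ranked rows, 1.67% on X and 1.25% on the autosomes did. Of these 44, 21 overlapped the second thresholded list of the series, and the other 23 overlapped no thresholded list at all. These 23, set apart after their values had been seen, are called the unlisted high-score peaks below, after their IDR score and not their signal value. The remaining 393 include the 21 in the second list.

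The sequences under the strongest unlisted peaks are shown first, because repeated units can be read in most of them. Each is the reference sequence on the plus strand from 5′ to 3′, read from WBcel235, with capitals for bases covered by a 31-base word that occurs more than once in the genome, and is named by the coding gene with the nearest 5′ end.
Y7A5A.7, chrX:15810941-15811207: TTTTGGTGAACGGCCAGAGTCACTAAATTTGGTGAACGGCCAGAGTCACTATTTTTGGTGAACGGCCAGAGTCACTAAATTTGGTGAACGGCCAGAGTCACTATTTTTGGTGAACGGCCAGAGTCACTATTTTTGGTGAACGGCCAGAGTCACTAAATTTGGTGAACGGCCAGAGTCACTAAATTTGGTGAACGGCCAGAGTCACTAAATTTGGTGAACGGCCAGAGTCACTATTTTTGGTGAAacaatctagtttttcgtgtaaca
Y102F5A.1, chrX:11785711-11785936: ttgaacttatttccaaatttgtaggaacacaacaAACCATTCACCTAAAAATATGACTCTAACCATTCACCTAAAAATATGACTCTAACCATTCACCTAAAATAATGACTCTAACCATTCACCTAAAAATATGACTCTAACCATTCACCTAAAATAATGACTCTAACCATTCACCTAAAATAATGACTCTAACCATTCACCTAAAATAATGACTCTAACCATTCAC
R57.2, chrX:293346-293507: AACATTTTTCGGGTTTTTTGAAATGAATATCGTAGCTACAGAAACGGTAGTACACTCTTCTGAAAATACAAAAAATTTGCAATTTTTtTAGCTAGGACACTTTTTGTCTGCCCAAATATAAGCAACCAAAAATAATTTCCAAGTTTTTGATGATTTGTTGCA
elk-2, chrX:110418-110566: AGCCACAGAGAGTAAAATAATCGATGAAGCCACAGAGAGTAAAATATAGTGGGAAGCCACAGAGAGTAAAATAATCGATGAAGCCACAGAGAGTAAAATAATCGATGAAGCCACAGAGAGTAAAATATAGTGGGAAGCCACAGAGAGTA
C24H10.4, chrX:5056865-5057031: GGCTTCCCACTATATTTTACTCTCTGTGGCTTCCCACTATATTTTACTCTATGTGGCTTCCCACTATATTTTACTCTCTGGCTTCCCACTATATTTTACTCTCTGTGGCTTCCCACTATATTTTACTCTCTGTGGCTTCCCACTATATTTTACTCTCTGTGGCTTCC
In the first, 244 of 267 bases were covered by repeated words, and in the second 192 of 226. The best match of the 201 bases around the summit to the bases that follow came at a lag of 26 bases for both peaks near Y7A5A.7 and at 27 bases for those near elk-2 and C24H10.4. The elk-2 and C24H10.4 peaks lie far apart in the left part of X but share 31-base words, and in the printed orientation one carries the unit as the reverse complement of the other. The R57.2 peak differed, with a best match of 38.8% at any lag from 5 to 100 bases. Its words were nonetheless repeated close by, with a median of 14 copies within 5 kb of the summit. Longer lags were not searched.

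The 23 unlisted high-score peaks had signal values from 66.0 to 2926, with a median of 172, and 20 of them were at 100 or more, a level that none of the remaining 393 peaks reached. The other 3 of the 23, at 66.0, 71.7 and 77.2, lay within the range of the 393. In 21 of the 23, over 50% of the 31-base words in the summit window occurred more than once in the genome. The most frequent word of each window had a median of 154 copies. The words were repeated close by, since a median word occurred 12 times within 5 kb of the summit, taking the median over the 23 peaks. By the lag measure, 16 of the 23 windows matched their own sequence at 80% or more. All ranked rows on X gave 4.56% with over 50% of words repeated, and the X conservative peaks away from small RNA genes gave 10 of 170. A 31-base word with several copies has no single place in the genome by its sequence alone. Longer stretches were not counted, and the sources used here do not say how the authors' alignment treated such copies. The part of repeated sequence in these signal values was not tested.

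**Figure D1:**
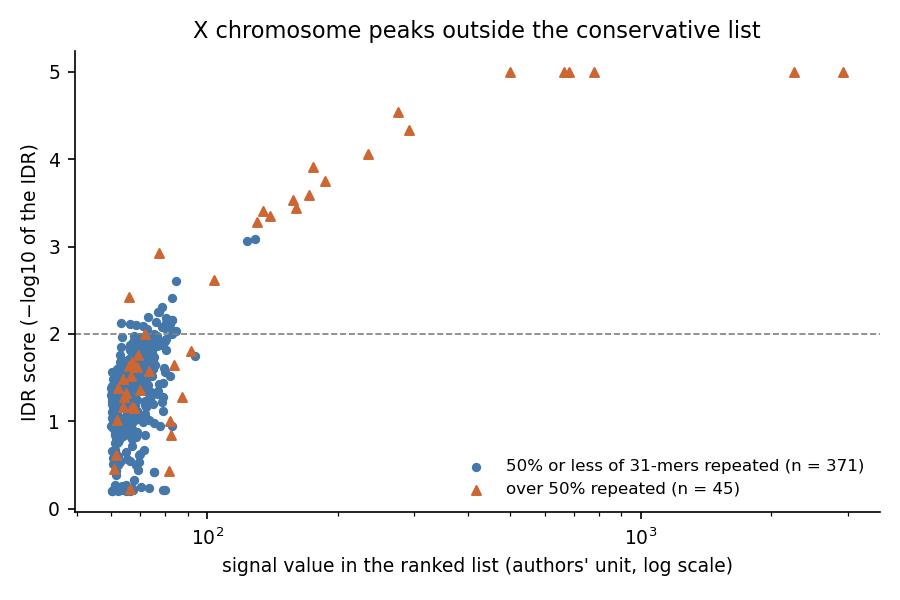
Each point is 1 of the 416 X peaks outside the conservative list, plotted by its signal value in the ranked list (log scale) and by its IDR score, with the dashed line at a score of 2. Triangles mark the 45 windows with over 50% of 31-base words repeated in the genome and circles the other 371. Every point above a pair of circles near ZK380.4, at 123 and 129, is a triangle, and all other circles lie under 100.

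The strongest X peak, chrX:15810941-15811207, had a signal value of 1186 in replicate 1 and 1811 in replicate 2, each from its own ranked list. Its summit lay 6938 bp upstream of Y7A5A.7, and a second peak 4020 bp upstream of the same gene had 250 in replicate 1 and 421 in replicate 2. These 2 peaks share 31-base words, and whether their signal values are independent was not tested. The peak at chrX:11785711-11785936, 1493 bp upstream of Y102F5A.1, had 1089 in replicate 1 and 1207 in replicate 2. A weaker repeat peak beside it, chrX:11787349-11787515, had 58.2 and 148. Replicate 2 was the higher at these 4 sites. Another peak linked to that pair by shared words, chrX:11786784-11787103, went the other way, with 129.8 in replicate 1 and 36.6 in replicate 2. A further peak near Y102F5A.1, the weakest of the 23, had 72.7 in replicate 1 and no row in replicate 2.

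The peak 3787 bp upstream of R57.2 had a signal value of 339 in replicate 1 and 453 in replicate 2. The peak 1478 bp upstream of elk-2 had 306 in replicate 1 and 389 in replicate 2. A peak near fbxa-221, a gene of the F-box family, lay 1655 bp upstream and had 69.8 and 107. The peaks by elk-2, fbxa-221 and C24H10.4, 4 in number, formed a family linked by shared 31-base words, and each shared such words with 17 unlisted high-score peaks on autosomes. The C24H10.4 pair lay downstream of the gene's 5′ end, by 2059 and 2570 bp, with 193 and 296 at the stronger site.

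The largest linked family held 5 peaks, 3 of them upstream of hex-5, a gene of the hexosaminidase family, and a pair that overlap each other near Y81B9A.1 and Y81B9A.2. The hex-5 peaks had 118 and 179, then 119 and 126, then 129 and 96.1 in replicates 1 and 2. So the higher replicate changed within the family. The other genes nearest to any of the 20 strongest X peaks were Y49A10A.2, efhc-1, Y48D7A.1, C04B4.6 and ZK380.4, with signal values in the series list from 103 to 157. The 23 peaks fell into 11 families in all, some of which held 1 peak only. These were the peaks near R57.2, Y48D7A.1 and C04B4.6, that in H03A11.2 and the weakest near Y102F5A.1. None had its summit in a promoter window, the 1000 bp before and the 200 bp after the 5′ end of each coding transcript. Intergenic sequence outside those windows held 22 of them, and the body of H03A11.2 the last one. None lay within 5 kb of a conservative summit, against 71 of the remaining 393. The autosomes held 95 peaks of the same description, 90 of them with over 50% of words repeated. Per Mb, X held 1.30 such peaks and the autosomes from 0.851 on chromosome II to 1.37 on chromosome IV.

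The other ranked list of the series gave 21 of the 23 unlisted high-score peaks a score of 2 or more as well, with 1.11 for the H03A11.2 peak and 0.601 for the weakest one near Y102F5A.1. It put 293 X rows at a score of 2 or more, of which 270 were in the conservative list. The X rows outside it were these 21 and 2 of the remaining peaks, near Y81B9A.2 (2.56) and ZK380.2 (2.13). On the autosomes, 979 of 1075 such rows were in the conservative list. The thresholded lists used 1 input more than the ranked lists, per the deposited texts, and its role is not stated. Its part in the absence of these peaks was not tested.

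The remaining 393 peaks had signal values from 60.02 to 93.6, with a median of 66.7, and 280 of them were under 70. Just inside the threshold stood peaks in the bodies of wrk-1 (60.09) and ldb-1 (60.08) and in the promoter window of unc-2 (60.02). Just outside it stood peaks in the bodies of adm-2 (59.99), clc-7 (59.95) and T18D3.6 (59.90). A repeated 31-base word was absent from 325 of the 393 windows. Their median GC content was 46.8%, between 38.8% over all ranked rows on X and 49.8% in the X conservative peaks away from small RNA genes. The unlisted high-score peaks had a median of 36.3%. Any thresholded list held 29 of the remaining peaks. That of replicate 1 held 4, that of replicate 2 held 9, and no X peak was in both. For all 698 X rows of 60 or more, 17% overlapped the list of replicate 1, 18.9% that of replicate 2 and 36.1% the second series list.

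A ranked row of each replicate's own list overlapped 388 of the 416 peaks (93.3%), and none lacked a row in both. Replicate 1 had a row at 398 and replicate 2 at 406. Over all ranked rows on X the shares were 61.6% for replicate 1 and 61.1% for replicate 2, and 94.7% of the autosomal peaks had a row in both. Where both had a row, replicate 1 had the higher signal value at 204 X peaks and replicate 2 at 184. At 38 peaks the pair was over 2-fold apart. Among the unlisted high-score peaks replicate 2 was the higher at 16 and replicate 1 at 6. The overlapping pair near Y81B9A.1 and Y81B9A.2 had the same values, 105 in replicate 1 and 37.2 in replicate 2. Both peaks of the pair count among the 6 and among the 38. The lists have no stated common scale, and the same reads entered the rule, so these values are a description.

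**Figure D2:**
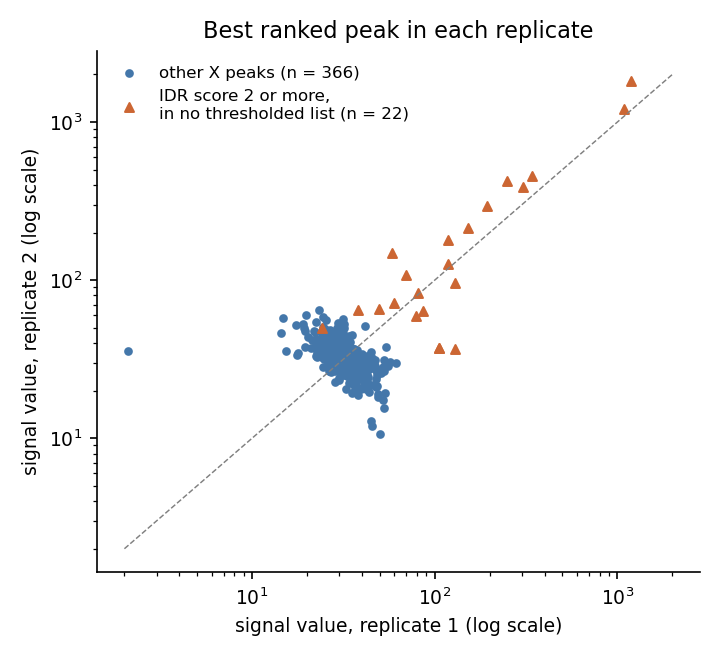
Each point is 1 of the 388 X peaks with a ranked row in both replicates, at the signal value of the best overlapping row in replicate 1 (horizontal) and replicate 2 (vertical), both on log scales, with the dashed line of equal values. The 22 unlisted high-score peaks (triangles) extend to 1186 and 1811, and the 366 remaining peaks (circles) reach at most 61.6 in replicate 1 and 64.7 in replicate 2.

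The 416 X peaks amounted to 23.5 per Mb, against 27.2 per Mb on the autosomes. X held 15.6% of all 2662 peaks (95% Wilson interval 14.3 to 17.1) and 17.7% of the length of the 6 nuclear chromosomes, a density ratio of 0.863 (exact binomial test, two-sided, p = 0.0056). Per coding gene the direction turned, since X held 13.7% of the coding genes, which gave a ratio of 1.17 (exact binomial test, p = 0.0040). Set against the ranked rows of each chromosome, the shares of 2.47% and 2.58% gave an odds ratio of 0.954 (95% interval 0.856 to 1.06, Fisher's exact test, p = 0.394). Peaks and not samples were counted in all these tests, neighbouring peaks are not independent, and p-values and intervals cover counting error only. The X density lay within the range of the single autosomes, from 20.8 per Mb on chromosome V to 34.1 per Mb on chromosome I. With the list of replicate 2 alone, cut at the same fraction of its rows, the density ratio was 0.879 (exact binomial test, p = 0.0721), and with replicate 1 alone 0.848 (p = 0.0166). At a signal value of 80 or more the direction turned, with a ratio of 1.12 over 43 X peaks (exact binomial test, p = 0.483).

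**Figure D3:**
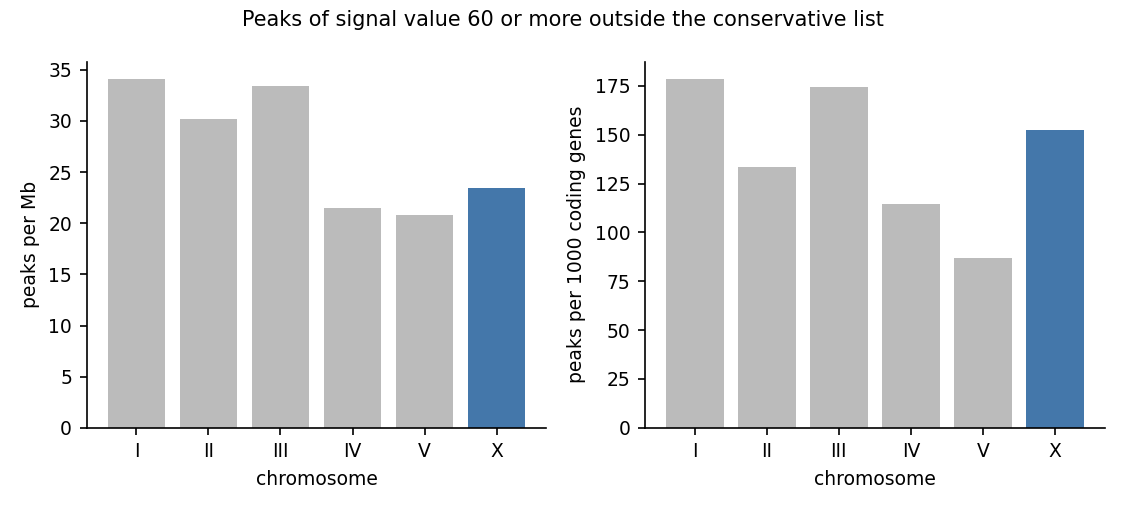
Bars give the number of peaks of signal value 60 or more outside the conservative list and away from small RNA genes, per Mb (left) and per 1000 coding genes (right), for each chromosome. X (dark bar) stands at 23.5 per Mb and 152 per 1000 genes, inside the range of the autosomes on both scales.

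Along X, cut into 5 equal parts, the outer parts held more of the peaks than the middle ones, with 100, 72, 65, 68 and 111 peaks from left to right. The ranked rows followed a like course, from 4011 in the leftmost to 2588 in the middle and 3955 in the rightmost, so that the peaks were between 2.15% and 2.81% of the ranked rows in each. Of 178 stretches of 100 kb, 158 held at least 1 peak, with a median of 2. The most crowded, chrX:10300001-10400000, held 9, among them peaks at R07E3.4 and pkn-1 and repeat peaks near efhc-1 and Y49A10A.2. Next was chrX:16900001-17000000 with 8, which include a pair at mbl-1, a muscleblind family RNA-binding protein. The third, chrX:14900001-15000000, held 7, of which 3 were the hex-5 repeat peaks.

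The annotation at the summit differed between X and autosomal peaks in 4 of 7 classes (Fisher's exact tests, Benjamini-Hochberg adjustment over the classes). Intergenic sequence outside promoter windows held 128 X summits, 30.8% (Wilson interval 26.5 to 35.4) against 21.4% of the autosomal ones (odds ratio 1.63, exact test, adjusted p = 0.000158). Introns held 94, 22.6% against 32.1% (odds ratio 0.618, exact test, adjusted p = 0.000234). Coding exons held 73, 17.5% against 23.5% (odds ratio 0.694, exact test, adjusted p = 0.0128). Exons of noncoding genes held 37, 8.89% against 3.61% (odds ratio 2.61, exact test, adjusted p = 8.19e-05). Shares over all ranked rows pointed the same way for X and autosomes, at 24.8% and 16.96% for intergenic sequence outside promoter windows and 5.38% and 3.64% for noncoding exons. Which classes passed changed with the replicate, over fewer X peaks from replicate 2 alone (237) and from replicate 1 alone (246). With replicate 2 alone only the noncoding exon class passed Fisher's exact test (odds ratio 2.59, adjusted p = 0.00531), and with replicate 1 alone the intergenic class (1.97, adjusted p = 3.97e-05) and coding exons (0.585, adjusted p = 0.0126) did. The odds ratios of all 4 classes kept their direction with each replicate alone. Those that did not pass with replicate 2 were 1.14 (intergenic), 0.747 (introns) and 0.678 (coding exons). With replicate 1 they were 0.895 (introns) and 1.60 (noncoding exons). All 4 classes passed without the unlisted high-score peaks.

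**Figure D4:**
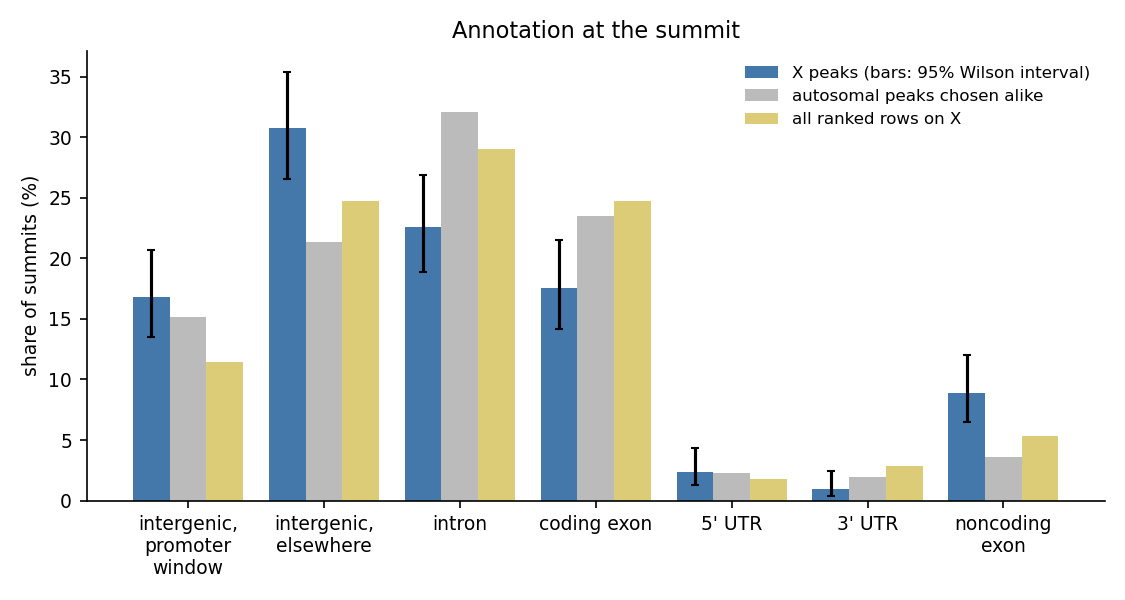
Bars give the share of summits in each annotation class, in percent, for the 416 X peaks (dark, with 95% Wilson intervals), the 2246 autosomal peaks chosen alike (grey) and all 16868 ranked rows on X (yellow). The X peaks stand highest of the 3 sets in intergenic sequence outside promoter windows (30.8%) and in noncoding exons (8.89%), and lowest in introns and coding exons.

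Of the 37 X peaks in noncoding exons, 33 lay at genes annotated as ncRNA, 3 at pseudogenes and 1 at an antisense RNA gene. X holds 2520 of 7764 such ncRNA genes, or 32.5%. Of 74 miRNA genes on X, 1, cel-mir-4812, lay within 100 bp of a peak, and on the autosomes 6 of 187 did. Promoter windows, counted whatever else lies there, held 119 X summits, 28.6% (Wilson interval 24.5 to 33.1), against 33.3% of the autosomal summits (odds ratio 0.801, 95% interval 0.631 to 1.01, Fisher's exact test, p = 0.0603). The difference did not pass 0.05, but did with the list of replicate 1 alone (odds ratio 0.563, exact test, p = 0.000485), at a signal value of 50 or more (0.844, p = 0.0202) and at 80 or more (0.306, p = 0.0126). The set at 80 or more held only 43 X peaks. Of these, 20 were unlisted high-score peaks, none of which had its summit in a promoter window. With replicate 2 alone it was 0.865 (exact test, p = 0.395). Among all ranked rows on X the share was 23.0%, and among X conservative peaks away from small RNA genes 77 of 170 (45.3%).

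At least 1 peak in the promoter window or the body was found for 261 of 2731 coding genes on X (9.56%) and for 1692 of 17242 on the autosomes (9.81%). The genes of the sex decision on X were looked up whatever their values. Of 5 such genes in the annotation, ceh-39 and sex-1 had a peak and fox-1, sdc-2 and xol-1 did not, while sex-2 had no match by that symbol. The windows of 201 bases around the summits by ceh-39, its neighbour ceh-21 and sex-1 are shown as reference sequence on the plus strand, where capitals would mark the T-box core and none of the 3 holds it.
ceh-39, chrX:1856274-1856474: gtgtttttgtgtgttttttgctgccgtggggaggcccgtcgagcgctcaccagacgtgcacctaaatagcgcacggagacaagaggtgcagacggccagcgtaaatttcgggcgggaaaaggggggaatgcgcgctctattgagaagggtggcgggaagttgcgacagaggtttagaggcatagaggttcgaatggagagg
ceh-21, chrX:1850650-1850850: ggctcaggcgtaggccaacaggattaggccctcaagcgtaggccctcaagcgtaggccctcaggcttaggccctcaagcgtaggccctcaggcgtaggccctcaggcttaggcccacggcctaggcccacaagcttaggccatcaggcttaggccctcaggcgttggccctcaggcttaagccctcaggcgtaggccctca
sex-1, chrX:10206545-10206745: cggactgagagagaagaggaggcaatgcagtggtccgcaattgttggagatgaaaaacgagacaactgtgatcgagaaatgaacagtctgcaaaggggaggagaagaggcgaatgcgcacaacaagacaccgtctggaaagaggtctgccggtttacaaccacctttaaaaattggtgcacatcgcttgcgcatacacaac
The window in ceh-21 has a GC content of 64.7% and no 31-base word that recurs in the genome. By the lag measure, however, it matched its own sequence at 80.1%, at a lag of 14 bases.

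The ceh-39 gene encodes a ONECUT homeodomain protein that acts as an X signal element. Its peak, chrX:1856214-1856533, had its summit 202 bp upstream of the 5′ end, in the promoter window, with a signal value of 72.3 in the series list. Replicate 1 had 53.0 and replicate 2 had 26.8, and only the thresholded list of replicate 1 held it. The adjacent ceh-21, which encodes another ONECUT protein, had 3 peaks. The strongest, in an intron, had 79.0, with 29.8 in replicate 1 and 46.0 in replicate 2. The others had 63.0 and 60.9, and for them too replicate 2 was the higher, the opposite order to the ceh-39 peak. The next gene of the cluster, ceh-41, had no row above 27.4.

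The sex-1 gene encodes a nuclear receptor that represses xol-1. A peak 1224 bp upstream of its 5′ end, outside the promoter window, had 68.3, with 36.5 in replicate 1 and 27.2 in replicate 2. A second, in a coding exon 103 bp downstream of the 5′ end, had 60.5, with 17.7 and 34.8. So the replicates ranked the pair in opposite order. The highest ranked row at fox-1, an RNA-binding X signal element, had 57.9, which is just under the threshold. At sdc-2 it was 48.7 and at xol-1 24.3, about the median of 23.2 over all ranked rows on X. None of these genes had a conservative peak from 1 kb upstream to the gene's end.

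The strongest of the remaining 393 peaks lay 185 bp upstream of lgl-1, a homologue of the Drosophila cell polarity gene lethal giant larvae, at 93.6. Replicate 1 had 61.6 there and replicate 2 had 29.9. The genes of this paragraph outside the lists were chosen after their values had been seen. A peak in the promoter window of clec-266, a C-type lectin gene, had 84.8, with 19.8 in replicate 1 and 59.8 in replicate 2. An intron of nhr-25, a nuclear receptor of epidermal development, held a peak of 83.0 with 53.0 and 31.1. The promoter window of sem-5, the adaptor of receptor tyrosine kinase signalling in vulval induction, held one of 83.0 with 30.6 and 49.7. At 47.1 and 31.4 the lin-2 peak, in the body of a gene needed to localise that receptor, had a like level. No replicate was the higher throughout. Promoter windows also held peaks at aakg-4, a gamma subunit of AMP-activated kinase (80.4), at puf-9, a Pumilio family RNA-binding protein (79.6), and at lam-2, the laminin gamma chain (79.5). Further such peaks lay at hsp-25, a small heat shock protein (78.7), kin-20, a casein kinase (76.8), utx-1, a histone H3 lysine demethylase (76.7), and mbk-1, a DYRK family kinase (75.5).

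Among gene families, homeobox genes named ceh- had a peak at 2 of 18 members on X, ceh-21 and ceh-39. Nuclear hormone receptors had one at 2 of 23, nhr-25 and nhr-91 (68.7). Collagens had one at 3 of 27, col-44 (68.8), col-175 (68.2) and col-41 (65.2), and on the autosomes at 30 of 129. Chemoreceptors had one at 1 of 33, srxa-9 (64.9), C-type lectins at 1 of 3, clec-266, and F-box genes at 0 of 17. The histone genes his-38 and his-40, of 5 on X, shared 1 peak at 66.9. Ribosomal protein genes had none at 2 on X and one at 18 of 76 on the autosomes. The other autosomal counts were 1 of 45 for ceh- genes, 15 of 246 for nuclear hormone receptors and 30 of 1276 for chemoreceptors. For C-type lectins they were 17 of 237, for F-box genes 10 of 305 and for histones 9 of 75. These shares stand beside 9.56% for all coding genes on X and 9.81% on the autosomes, with few X members in most lists.

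Muscle genes had a peak at 4 of 7 on X and 5 of 10 on the autosomes. The X members were mlc-1, a myosin light chain (66.0), mup-2, a troponin T of body wall muscle (63.99), tnt-3, another troponin T (61.3), and myo-2, a pharyngeal myosin heavy chain with a pair of peaks in coding exons (61.2 and 60.8). At mlc-1 31.6% of the 31-base words recurred in the genome. Synaptic and neuronal genes had a peak at 6 of 11 on X and 3 of 9 on the autosomes. They included kin-29, a salt-inducible kinase (67.9), unc-7, an innexin (67.0), lin-15B, a chromatin regulator (65.4), and syd-2, the liprin-alpha of the presynaptic active zone (63.5). Of the 6, lin-15B and lin-15A act in the control of vulval fates and are not genes of the synapse. Both lists were chosen by hand with earlier results of these data known, so their shares do not measure a preference for such genes. Gene length was not taken into account. On X, 25 coding genes had 2 or more peaks and 5 had 3, among them ceh-21, fln-2, a filamin, and igcm-4.

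The T-box core GGTGTGA, on either strand within 100 bp of the summit, was found in 11 X peaks (2.64%) and in 1.65% of the autosomal ones (odds ratio 1.62, 95% interval 0.740 to 3.28, adjusted p = 0.403 by Fisher's exact test over 5 motifs). All ranked rows on X held it in 1.99% and X conservative peaks away from small RNA genes in 1.76%. Of the other motifs searched, the same way and over the same windows, only the run TTTTTTT differed, with 16.6% against 22.8% (odds ratio 0.675, exact test, adjusted p = 0.0268) and 31.7% over all ranked rows on X. It did not pass with either replicate alone (exact test, adjusted p = 0.252 and 0.358). The repeat GAGAGAG stood at 7.69% against 7.03%, with 3.67% over all ranked rows on X and 16.5% in the conservative ones. GCGCAGG, the core of sites that recruit the dosage compensation complex, stood at 0.721% against 1.29%, and the GATA factor site TGATAAG at 2.40% against 1.91%, both with adjusted p = 0.605 by the exact test.

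The windows of 201 bases that hold the T-box core at 3 of these 11 peaks are shown on the plus strand, with the core in capitals, to place it against the summit at the middle base.
aakg-4, chrX:2316934-2317134: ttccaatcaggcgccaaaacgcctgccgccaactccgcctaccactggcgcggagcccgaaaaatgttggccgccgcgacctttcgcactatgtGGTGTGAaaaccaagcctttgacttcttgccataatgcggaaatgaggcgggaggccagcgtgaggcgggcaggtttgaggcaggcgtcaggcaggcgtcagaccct
ztf-16, chrX:4813256-4813456: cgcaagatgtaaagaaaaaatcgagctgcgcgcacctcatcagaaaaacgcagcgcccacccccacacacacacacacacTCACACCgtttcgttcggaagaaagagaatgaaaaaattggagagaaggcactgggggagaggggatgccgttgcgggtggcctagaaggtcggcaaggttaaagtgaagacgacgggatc
his-24, chrX:14491227-14491427: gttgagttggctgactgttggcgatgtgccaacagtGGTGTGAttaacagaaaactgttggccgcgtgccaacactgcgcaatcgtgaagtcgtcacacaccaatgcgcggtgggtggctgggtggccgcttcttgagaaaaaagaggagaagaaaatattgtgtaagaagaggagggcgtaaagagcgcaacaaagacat
At aakg-4 the core began 6 bases before the summit, and the peak of 80.4 had 56.8 in replicate 1 and 30.5 in replicate 2. Near ztf-16, a zinc finger gene, it began 20 bases before the summit of a peak of 78.7, with 53.8 and 38.0. Near his-24, which encodes a linker histone, it began 64 bases before the summit of a peak of 65.5, with 37.4 and 28.4. The ztf-16 and his-24 peaks lay in no promoter window or body of a coding gene and are named by the nearest 5′ end. Over all 11 peaks replicate 1 was the higher at 6 and replicate 2 at 5. The other 8 had signal values from 60.1 to 69.4. Those at mbl-1, rbc-1, F54E4.3 and C43H6.6 lay in promoter windows. Those near rig-1, T22B7.22, tsp-9 and K06A9.3 lay in no promoter window or coding gene body and are named by the nearest 5′ end. Near T22B7.22 the replicates were far apart, at 2.10 and 35.9.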

How the data were processed

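Anti-GFP immunoprecipitates of 2 biological replicates were analysed from peak lists on ce11, the build per the labels. The authors' deposited signal value, whose normalization is not stated, served to filter, rank and describe peaks. Ranked lists also hold a deposited score, read from its values as −log10 of the IDR. Per the deposited texts, series lists derive from both replicates and own lists from 1. The sources used here do not name the aligner or peak caller or give the depth, and 0 columns of per-sample values were left unused. Samples form 1 group by the labels' developmental stage, with replicate numbers from the labels.

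The summit was the deposited offset in each peak. A replicate's value is that of its best ranked row overlapping by at least 1 bp. Summits were classed, in this order, as coding exon, 5′ UTR, 3′ UTR, noncoding exon, intron, intergenic in a promoter window, or intergenic elsewhere. Copies of 31-base words were counted over the genome on both strands. Shares on X were tested against autosomes by Fisher's exact or exact binomial tests, two-sided, checked on simulated counts, with a threshold of 0.05 (Python 3.11.15, scipy 1.17.1, pandas 2.3.3, numpy 2.4.6). Members and gene lists were chosen with earlier results of these data known. Genes named were those at the 20 strongest X peaks, the sex-decision genes, up to 4 members of each list (all 6 synaptic members counted), the 3 peaks on each side of the threshold and the 3 most crowded stretches; genes at peaks with the T-box core, ceh-21, ceh-41, H03A11.2, genes with several peaks and lgl-1, sem-5, lin-2, puf-9, lam-2, hsp-25, kin-20, utx-1 and mbk-1 were also named after their values had been seen. Alternatives changed the signal threshold, overlap, small RNA distance, merging, ranked list, replicate, promoter window, motif window and denominator. Leaving out repeat-rich peaks was chosen after seeing the data.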

Additional observations from a re-analysis of the deposited data

How the results depend on the processing

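At a signal value of 80 or more, which left 43 X peaks, the density ratio turned to 1.12 and the odds ratio of the share of ranked rows to 1.24, the promoter window odds ratio fell to 0.306 (Fisher's exact test, p = 0.0126), 0 annotation classes and 0 motifs passed, and presence in both replicates was 97.7%. At 50 or more (1111 X peaks) the odds ratio of the share of ranked rows was 0.936 (Fisher's exact test, p = 0.0489) and that of promoter windows 0.844 (p = 0.0202), 2 motifs passed, GGTGTGA with an odds ratio of 1.72 (adjusted p = 0.0324) beside TTTTTTT, and presence in both replicates was 89.5%. With coding genes as the denominator the density ratio was 1.17. With motifs within 50 bp of the summit 0 passed. Leaving out each replicate gave density ratios of 0.848 to 0.879, ranked row odds ratios of 0.943 to 0.973, promoter window odds ratios of 0.563 to 0.865, 1 to 2 annotation classes and 0 motifs. The cause of these changes was not tested. Fewer X peaks stood at 80 or more and in the lists of replicate 2 alone (237) and replicate 1 alone (246). At 80 or more, 20 of the 43 were unlisted high-score peaks.

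Odds ratios of single classes that turned were intergenic promoter windows (0.359 at 80), GCGCAGG (1.17 at 50, 1.08 within 50 bp) and GAGAGAG (0.993 at 50), none of which had passed. Leaving out each replicate gave 0.809 to 1.23 for intergenic promoter windows, 0.193 to 2.03 for the 5′ UTR class and 0.972 to 1.49 for GAGAGAG, and 1.94 for GCGCAGG without replicate 1, while without replicate 2 no X peak held GCGCAGG and no ratio was given. Merging, a stricter overlap, a distance of 250 bp, the other ranked list and, chosen after seeing the data, the removal of unlisted high-score or repeat-rich peaks kept the direction and the side of the threshold of each of these comparisons. The removal of all thresholded peaks, run for the density alone, kept both there. Of 181 values under an alternative, 141 kept both, 11 reversed, 14 lost and 5 gained the threshold, and 10 counts or shares moved. No paired analysis was possible because there is 1 group and no second group to pair it with. Depth is unknown, so no limit of detection could be given.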
